A study of Mus musculus with 6 samples.

Results

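The 10 members of the tumour necrosis factor (TNF) receptor superfamily described here are Tnfrsf1a, Tnfrsf1b, Tnfrsf25, Fas, Ltbr, Tnfrsf14, Tnfrsf4, Tnfrsf9, Tnfrsf18 and Cd27. They are 10 of 27975 gene names on the array, taken by name: every non-control probe named for one of them was used, whatever its signal. They had 16 probes in 43 spots, of 41174 non-control probes in 43379 spots on the array. All 16 probes passed the filter on dim signal and were among the 33056 probes tested.

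These receptors are single-pass membrane proteins that bind trimeric ligands of the TNF family. Receptors with a cytoplasmic death domain (Tnfrsf1a, Fas and Tnfrsf25) recruit the adaptors TRADD or FADD and can lead to NF-kB activation or to caspase-driven death, while the others bind TRAF proteins and activate NF-kB by its canonical or its alternative route. On T cells Tnfrsf4, Tnfrsf9, Tnfrsf18 and Cd27 are known as costimulatory receptors that sustain division and survival after antigen recognition.

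RNA came from CD4 T cells of the spleens of C57BL/6J mice, males and females aged 6 to 32 weeks, with 5 to 10 spleens pooled for each sample and the cells taken with magnetic beads against CD4. Both groups were activated with PMA, a phorbol ester, and with ionomycin, a calcium ionophore. The treated group also received VIP (vasoactive intestinal peptide, a neuropeptide that raises cAMP through its receptors), and the untreated group did not. The labels used here give no dose, duration or cell purity. Each of 6 Agilent arrays of 60-base probes carried both RNAs of 1 biological replicate in different dyes, with VIP in Cy5 on replicates 1, 3 and 5 and in Cy3 on replicates 2, 4 and 6.

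The measure throughout is the log2 ratio of VIP over untreated within an array. A called change is an adjusted p under 0.05 in limma, with Benjamini-Hochberg adjustment over all probes tested. Between 56.9% and 88.5% of spots were well above background on replicates 1 to 5, depending on array and channel. On replicate 6 the share was higher, at 99.0% with VIP and 99.9% without. Precision is limited by the number of arrays. Of 13 T cell markers, all were tested, and Cd3e and Cd4 were well above background in both channels of all 6 arrays. Replicate 5 stood apart from the other arrays. Its sex-linked transcripts differed between channels, with a log2 ratio of 4.18 for the Y-linked Eif2s3y and -3.29 for Xist, and 13.5% of its spots were flagged as outliers, against 0.574% to 4.44% elsewhere. Several results that it moved are therefore also given without it.

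VIP-treated cells held more RNA of both receptors of TNF itself. Tnfrsf1a was 1.27-fold and Tnfrsf1b 1.26-fold higher than in untreated cells, and these were the 2 of 10 members called higher by their brightest probe. None was called lower, and 8 were not called. Among all genes read by their brightest probe, 367 of 22748 (1.61%) were called higher and 125 (0.549%) lower. The members' median log2 ratio was 0.10 (0.07 without replicate 5), against -0.0003 over all genes. By probe, 2 of 16 were called higher, beside 1.62% of all probes, and 0 were called lower, beside 0.538%. In either direction, 2.16% of genes and 2.16% of probes were called. At an unadjusted p under 0.05 the fit found 6 of the 16 probes higher and 0 lower, against 7.22% and 5.76% of all probes.

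**Figure D1:**
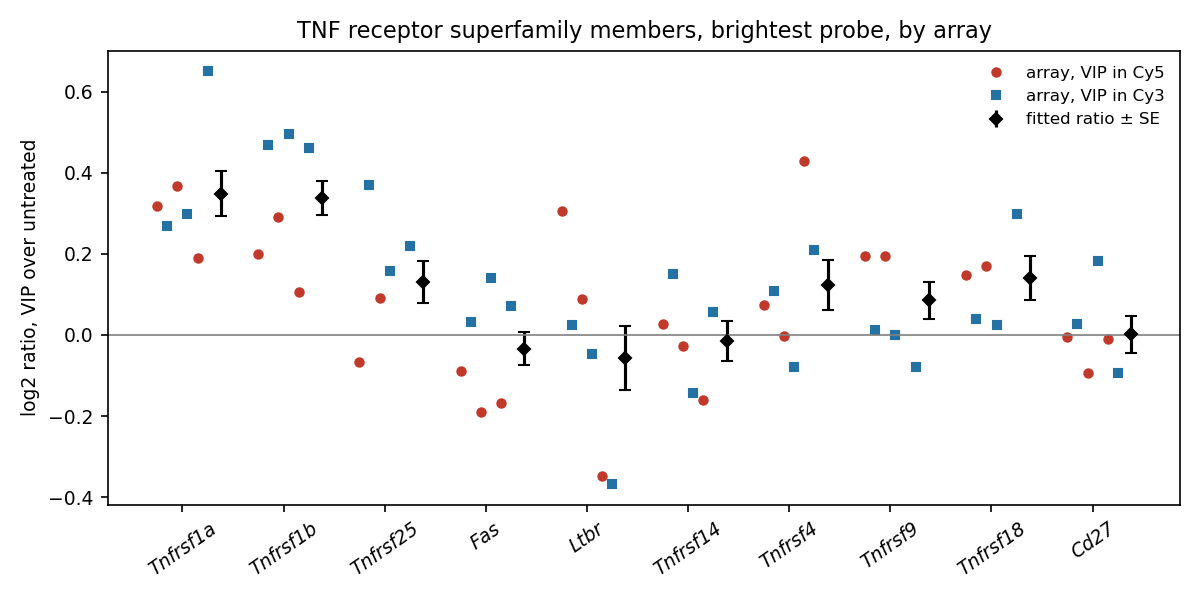
Log2 ratio of VIP over untreated (y axis) on each array for the brightest probe of each member (x axis). Circles are arrays with VIP in Cy5, squares arrays with VIP in Cy3, and black diamonds the fitted ratio ± SE. Tnfrsf1a and Tnfrsf1b lie above 0 on all 6 arrays, and Tnfrsf18 on all 5 of its arrays. Tnfrsf25, Fas, Ltbr, Tnfrsf14, Tnfrsf4, Tnfrsf9 and Cd27 lie on both sides of 0.

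Tnfrsf1a encodes the widely expressed death-domain receptor that binds TNF and lymphotoxin alpha. Its only probe (A_52_P192426, chr6:125312376-125312435, mm9, plus strand) had log2 ratios of 0.32, 0.27, 0.37, 0.30, 0.19 and 0.65 on replicates 1 to 6. All 6 values were above 0, and replicate 6 was the highest. The fitted log2 ratio was 0.35 ± 0.056 (SE, n = 6 arrays), with a 95% interval of 1.17-fold to 1.39-fold and an adjusted p of 0.00962. The 3 slides, each with 1 array of each orientation, gave means of 0.29, 0.33 and 0.42.

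In channel terms, the normalised log2 intensity of the Tnfrsf1a probe ran from 11.8 to 13.8 with VIP and from 11.5 to 13.7 without. These ranges overlap. The differences between arrays were larger than the difference between the channels of 1 array, and the result rests on comparing both RNAs on the same array. In bulk RNA a higher level per cell and a larger share of cells carrying the transcript cannot be told apart.

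Tnfrsf1b encodes the second TNF receptor, which lacks a death domain, signals through TRAF2 and is known to be prominent on activated and regulatory T cells. Its brighter probe (A_52_P228621, chr4:144804304-144804363, mm9, minus strand) had log2 ratios of 0.20, 0.47, 0.29, 0.50, 0.11 and 0.46 on replicates 1 to 6. All 6 were above 0, and the 3 arrays with VIP in Cy3 were all higher than the 3 with VIP in Cy5, a difference by orientation that the dye term of the fit takes out. The fitted log2 ratio was 0.34 ± 0.041 (SE, n = 6 arrays), with a 95% interval of 1.19-fold to 1.35-fold and an adjusted p of 0.00209. With that term taken off, the arrays lay between 0.24 and 0.43.

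Slide means for this probe were 0.33, 0.39 and 0.28. Its normalised log2 intensity ran from 14.1 to 16.7 with VIP and from 13.7 to 16.6 without, and the highest value in both channels was that of replicate 5. Without replicate 5 the log2 ratio was 0.37 for Tnfrsf1a (adjusted p = 0.00324) and 0.36 for Tnfrsf1b (adjusted p = 0.000605), so both calls were also made without the array that stood apart.

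**Figure D2:**
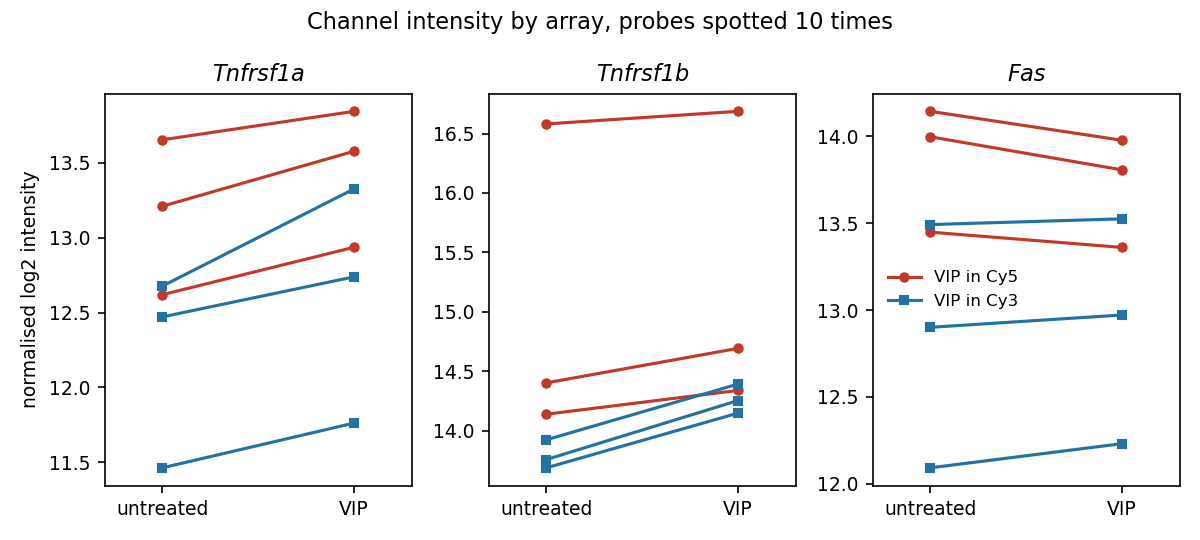
Normalised log2 intensity (y axis) in the untreated and the VIP channel (x axis) for the probes of Tnfrsf1a, Tnfrsf1b and Fas that were spotted 10 times. Each line joins both channels of 1 array, with circles for VIP in Cy5 and squares for VIP in Cy3. All 6 lines rise for Tnfrsf1a and Tnfrsf1b, and 3 rise for Fas.

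The dimmer Tnfrsf1b probe (A_51_P278282) reads another stretch of the transcript. It lies 8502 bases away on mm9, at chr4:144812866-144813439, where its 60 bases span 574 genomic bases and so cross at least 1 splice junction. It is shown because it is the only second probe of a called member:
A_51_P278282: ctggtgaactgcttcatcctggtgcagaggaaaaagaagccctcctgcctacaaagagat

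This probe had log2 ratios of 0.01, 0.26, 0.24, 0.41, 0.16 and 0.11, all above 0. The fitted log2 ratio was 0.20 ± 0.051 (SE), and it was not called (adjusted p = 0.0863). The brighter probe exceeded the dimmer one on 5 of 6 arrays, by a mean log2 of 0.14 (SD 0.14, n = 6). That difference had a p of 0.0938 in an exact two-sided sign-flip test, where the smallest possible value is 0.0312, and an adjusted p of 0.125 over the 4 such comparisons made here.

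The probes of Tnfrsf1a, Tnfrsf1b and Fas were printed 10 times on each array, which gives a measure of technical error inside an array. For Tnfrsf1b all 54 unflagged spot values were above 0, and the median SD between spots of 1 array was 0.044. For Tnfrsf1a all 51 were above 0, with a median SD of 0.057. For Fas 27 of 54 were above 0, with a median SD of 0.063 and an SD of 0.21 on replicate 5, more than the SD of 0.13 between its arrays. Fitted spot by spot, the Tnfrsf1b ratio lay between 0.32 and 0.38 and was called in 10 of 10 spots. The Tnfrsf1a ratio lay between 0.30 and 0.43 and was called in 9 of 9 fitted spots. No Fas spot was called, where 822 of 34860 spots (2.36%) were called over the array. Spots of 1 probe share the same RNA, so they measure printing and scanning error, not replicate error.

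**Figure D3:**
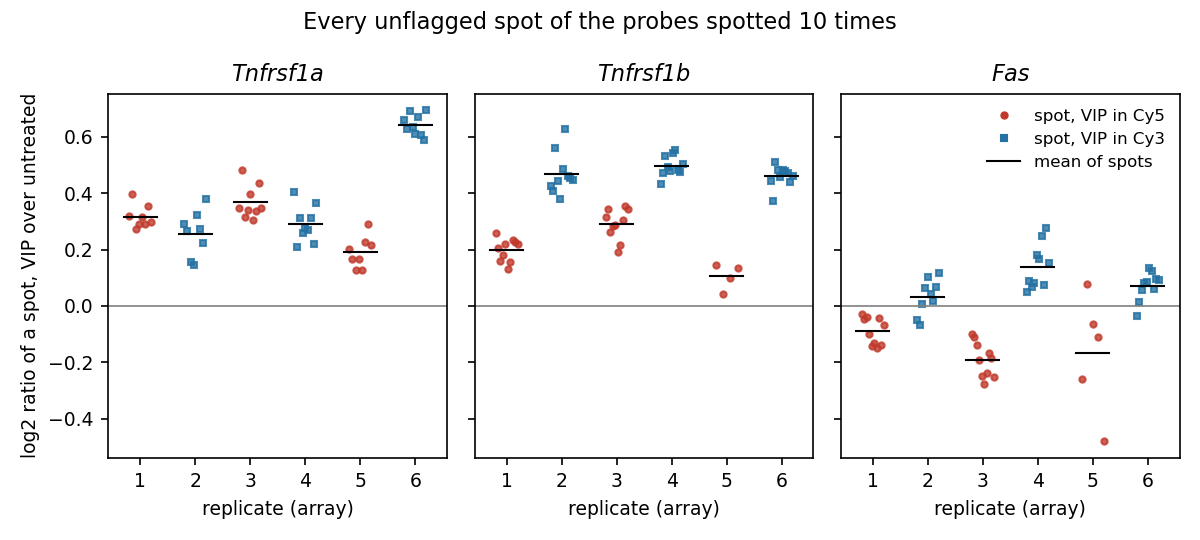
Log2 ratio of VIP over untreated for every unflagged spot (y axis) on each array (x axis, replicates 1 to 6) for the 3 probes printed 10 times. Circles are arrays with VIP in Cy5, squares arrays with VIP in Cy3, and black bars the mean of the spots. All spots of Tnfrsf1a and Tnfrsf1b lie above 0, the Fas spots of replicate 5 are spread from -0.48 to 0.08, and Fas follows the dye orientation, with a mean below 0 on replicates 1, 3 and 5 and above 0 on replicates 2, 4 and 6.

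Fas, the death receptor for Fas ligand, was not called by either of its probes. Its brighter probe had log2 ratios of -0.09, 0.03, -0.19, 0.14, -0.17 and 0.07 on replicates 1 to 6, with a fitted value of -0.03 ± 0.040 (SE, n = 6; adjusted p = 0.811). The signs followed the orientation: below 0 on the 3 arrays with VIP in Cy5 and above 0 on the 3 with VIP in Cy3. Its 95% interval ran from 0.919-fold to 1.04-fold. The second Fas probe gave 0.01 ± 0.042 (adjusted p = 0.979).

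Taken array by array, Tnfrsf1a exceeded Fas on 6 of 6 arrays by a mean log2 of 0.38 (SD 0.17), and Tnfrsf1b exceeded Fas on 6 of 6 by 0.37 (SD 0.082). Each difference had a p of 0.0312 in the exact sign-flip test, the smallest that 6 arrays allow, and 0.0625 after adjustment over the 4 comparisons. These comparisons were chosen with the values known, and all 4 used array ratios with the dye effect left in. Tnfrsf1b and Tnfrsf1a differed by -0.01 (SD 0.17; exact sign-flip p = 0.938), with Tnfrsf1b the higher ratio on 2 of 6 arrays.

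Tnfrsf25, the death receptor for TL1A and a T cell costimulator, was not called by either probe. The brighter had log2 ratios of -0.07, 0.37, 0.09 and 0.16 on replicates 1 to 4 and 0.22 on replicate 6, and no unflagged spot on replicate 5. Its fitted value was 0.13 ± 0.053 (SE, n = 5; adjusted p = 0.329). The other probe gave 0.08 ± 0.039 (adjusted p = 0.430) and was above 0 on 5 of 6 arrays.

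Ltbr, the receptor for lymphotoxin beta, is known mainly from stromal and myeloid cells. It had log2 ratios of 0.31, 0.03, 0.09, -0.05, -0.35 and -0.37, which was the widest spread among the members' probes (SD 0.26). The fitted value was -0.06 ± 0.080 (SE, n = 6; adjusted p = 0.849). The spread ran by slide, with means of 0.17, 0.02 and -0.36, the last from replicates 5 and 6. The probe was dim: its lowest normalised log2 intensity was 6.84 with VIP and 6.89 without, with medians of 7.27 and 7.17. Its highest values, 9.77 with VIP and 10.1 without, were both on replicate 6. Without replicate 5 the fitted value was 0.03.

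Tnfrsf14, which binds LIGHT and also the inhibitory receptor BTLA, had 2 probes. They gave -0.02 ± 0.049 (adjusted p = 0.943) and -0.03 ± 0.055 (adjusted p = 0.900), each with values on both sides of 0. Their 95% intervals reached from 0.917-fold to 1.07-fold and from 0.901-fold to 1.07-fold. Without replicate 5 the brighter probe gave 0.01.

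The costimulatory receptors that activation induces gave fitted ratios above 0 that did not pass the test. Tnfrsf4 (OX40) had log2 ratios of 0.07, 0.11, 0.00, -0.08, 0.43 and 0.21, with the highest value on replicate 5. The fitted value was 0.12 ± 0.062 (SE, n = 6; adjusted p = 0.452), and 0.06 without replicate 5. Its normalised log2 intensity ran from 16.3 to 17.9 with VIP and from 16.4 to 17.5 without, and no array was saturated.

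Tnfrsf18 (GITR) had log2 ratios of 0.15, 0.04, 0.17 and 0.03 on replicates 1 to 4 and 0.30 on replicate 6. All 5 values were above 0, and replicate 5 was flagged. The fitted value was 0.14 ± 0.055 (SE, n = 5; adjusted p = 0.309), with a 95% interval of 1.01-fold to 1.20-fold. Tnfrsf18 and Tnfrsf4 are adjacent genes on chromosome 4, with 0 protein-coding genes between them.

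Tnfrsf9 (CD137) had 3 probes. The brightest gave 0.20, 0.01, 0.19, 0.00 and -0.08 on the 5 unflagged arrays and a fitted 0.09 ± 0.046 (adjusted p = 0.492). The next gave 0.13 ± 0.051 (adjusted p = 0.294) and was above 0 on all 5 of its arrays. The third was well above background on 4 arrays with VIP and 3 without, and gave 0.02 ± 0.048 (adjusted p = 0.923).

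Cd27, a costimulator present on resting T cells, stayed closest to 0 among the members' brightest probes. Its log2 ratios were 0.00, 0.03, -0.09, 0.18, -0.01 and -0.09, and the fitted value was 0.001 ± 0.046 (SE, n = 6; adjusted p = 0.995), with a 95% interval of 0.932-fold to 1.07-fold.

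Seen together by probe, 12 of the 16 fitted ratios were above 0 and 4 below. Of the 12 probes with all 6 arrays, 3 were above 0 on every array (Tnfrsf1a and both Tnfrsf1b probes), beside 3.47% of all such probes, and 0 were below on every array, beside 2.72%. Probes of 1 gene read the same RNA and are not independent. In the 5 members with more than 1 probe, only the brighter Tnfrsf1b probe was called in either direction. Calls therefore cannot show whether the probes of a member agree.

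By position, 6 members lie on chromosome 4, 3 on chromosome 6 and 1 on chromosome 19. On chromosome 6, Ltbr and Tnfrsf1a have 1 protein-coding gene, Scnn1a, between them, and Cd27 and Ltbr have 1, Tuba3a. In that cluster Tnfrsf1a was called and Ltbr and Cd27 were not.

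The start sites of the called receptors can be read against that of Fas. Below are the 250 bases before the RefSeq start (assembly GRCm38.p6) of Tnfrsf1a (chr6:125349473-125349722, plus strand), Tnfrsf1b (chr4:145246871-145247120, minus strand) and Fas (chr19:34290409-34290658, plus strand). They are shown because the first pair were both called higher and the other member with 10 spots was not called. Whether the first pair share regulation was not tested. Capitals mark matches, on either strand, to the AP-1 pattern TGANTCA, the cAMP-response half-site TGACG or the NF-kB pattern (GGG and CC with any 5 bases between them):
Tnfrsf1a: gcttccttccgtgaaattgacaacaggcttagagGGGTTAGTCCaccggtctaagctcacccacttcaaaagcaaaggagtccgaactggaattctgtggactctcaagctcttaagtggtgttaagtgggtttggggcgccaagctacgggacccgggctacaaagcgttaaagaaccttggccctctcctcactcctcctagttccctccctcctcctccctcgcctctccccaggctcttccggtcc
Tnfrsf1b: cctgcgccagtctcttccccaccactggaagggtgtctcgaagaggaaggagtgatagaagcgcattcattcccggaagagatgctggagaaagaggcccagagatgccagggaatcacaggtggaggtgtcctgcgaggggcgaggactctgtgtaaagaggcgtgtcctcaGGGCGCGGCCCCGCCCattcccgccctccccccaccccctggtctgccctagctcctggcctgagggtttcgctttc
Fas: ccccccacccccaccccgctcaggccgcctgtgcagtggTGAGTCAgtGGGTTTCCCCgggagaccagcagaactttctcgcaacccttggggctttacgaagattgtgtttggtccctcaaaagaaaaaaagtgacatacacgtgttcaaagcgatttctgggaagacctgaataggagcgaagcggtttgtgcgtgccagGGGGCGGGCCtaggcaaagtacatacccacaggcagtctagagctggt

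Tnfrsf1a had 1 match to the NF-kB pattern, Tnfrsf1b had 3 that overlap one another, and Fas had 2, besides 1 AP-1 match. None of the 3 held the full cAMP-response element TGACGTCA or its half-site. All 10 members had an upstream window in the RefSeq table, 12 windows in all. A match to the NF-kB pattern was found in 8 members, where 45.8% of 32851 windows of the same length hold one. The half-site was found in 1 (17.8% of windows), AP-1 in 2 (6.75%), the full element in 0 (1.55%) and the GC box GGGCGG, which can overlap the NF-kB pattern, in 4 (32.7%). A member was counted if any of its windows held a match, while the percentages are of single windows. Tnfrsf9 had 2 windows, and its NF-kB and AP-1 matches lay only in the second. These are matches of letters only.

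Other receptors of the superfamily were not called. Of 18, all were on the array and 16 were tested, with 0 called higher, 0 lower and a median log2 ratio of -0.01. The largest ratio was that of Tnfrsf19 (0.24 ± 0.071, adjusted p = 0.149). Cd40, the B cell and dendritic cell receptor for CD40 ligand, had -0.09 ± 0.051 (adjusted p = 0.543).

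Among the ligands, Lta, Ltb and Tnfsf14 fell, each of them a ligand of at least 1 member. Of 17 ligands in the list, 15 were tested, with a median of -0.04 (-0.06 without replicate 5). Of these, 3 were called lower and 0 higher, beside 0.549% and 1.61% of all genes. Lta (lymphotoxin alpha, a ligand of Tnfrsf1a and Tnfrsf1b) had log2 ratios of -0.58, -0.62, -0.51, -0.68, -0.46 and -0.23. The fitted value was -0.51 ± 0.059 (SE, n = 6; adjusted p = 0.00155), below 0 on all 6 arrays.

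Ltb (lymphotoxin beta, the membrane partner of Lta and ligand of Ltbr) had -0.58, -0.46, -0.55, -0.53, -0.12 and -0.59. Its fitted value was -0.47 ± 0.061 (adjusted p = 0.00288), and -0.54 without replicate 5. Tnfsf14 (LIGHT, ligand of Tnfrsf14 and Ltbr) had -0.39, -0.05, -0.39, -0.16, -0.16 and -0.21, with a fitted -0.23 ± 0.047 (adjusted p = 0.0341). Of 21 alternative settings, Lta was called lower in 17, Ltb in 16 and Tnfsf14 in 9, and all 3 ratios stayed below 0 in 21. None of the 3 was called with Agilent's processed signals, the series table, median centring or unpaired channels. Tnfsf14 lost its call without any 1 of replicates 1, 2, 3, 4 and 6, with adjusted p from 0.0747 to 0.164, and was -0.11 with median centring.

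Tnf itself, the ligand the called receptors share, was not called. Its log2 ratios were -0.04, -0.26, -0.04, -0.24, 0.56 and -0.20, so that replicate 5 alone was above 0. The fitted value was -0.04 ± 0.073 (adjusted p = 0.910), and -0.14 ± 0.045 without replicate 5 (adjusted p = 0.138). Tnfsf11 (RANKL) gave 0.26 ± 0.061 by its brightest probe (adjusted p = 0.0665). That probe was called higher under 2 of 21 alternative settings, array weights (adjusted p = 0.0186) and without replicate 5, at 0.31 (adjusted p = 0.00728). The other tested probe of Tnfsf11 gave 0.04 and was not called.

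**Figure D4:**
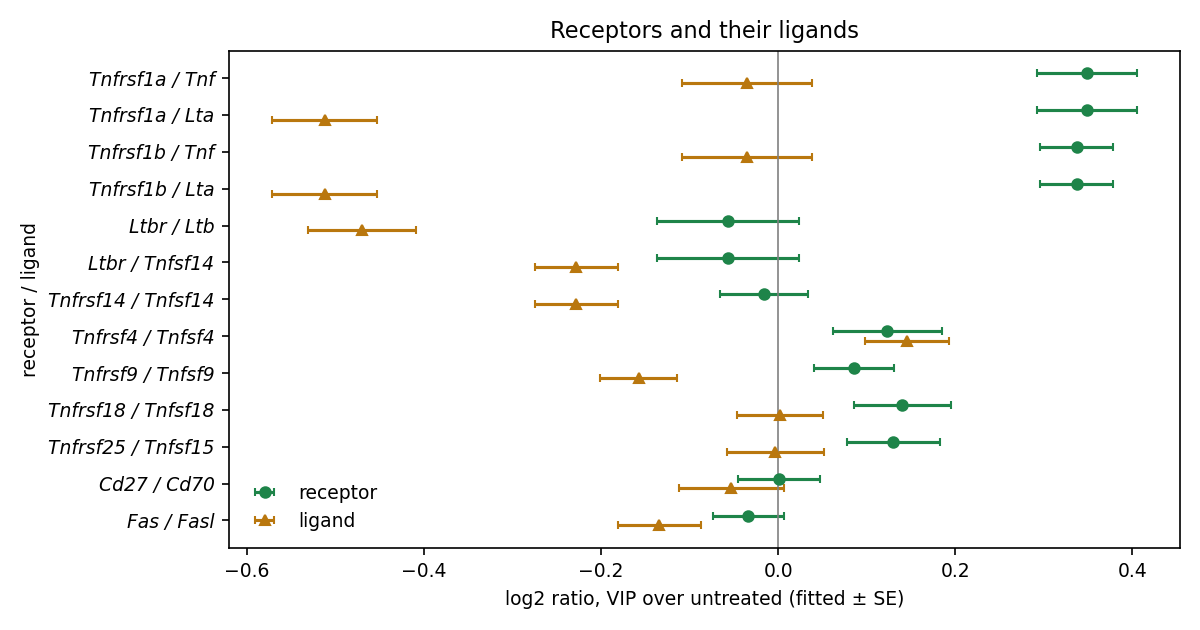
Fitted log2 ratio of VIP over untreated ± SE (x axis) for each receptor (circles, brightest probe) and a ligand it binds (triangles), with 1 receptor and ligand pair per line. Tnfrsf1a and Tnfrsf1b lie near 0.35 and 0.34, while their ligand Lta lies at -0.51 and Tnf at -0.04.

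For the costimulators, the receptor and its ligand were both uncalled. Tnfsf4, the ligand of Tnfrsf4, had 0.15 ± 0.047 (adjusted p = 0.192). Tnfsf9, the ligand of Tnfrsf9, had -0.16 ± 0.043 and was below 0 on all 6 arrays, without passing the test (adjusted p = 0.116). Tnfsf18 had 0.002, Tnfsf15, the ligand of Tnfrsf25, -0.003, Cd70, the ligand of Cd27, -0.05, and Fasl -0.13 (adjusted p = 0.233).

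Downstream of the receptors, 31 adaptors and signalling genes were tested, with a median of -0.001 (0.02 without replicate 5). Of these, 1 was called lower and 0 higher, beside 0.549% and 1.61% of all genes. The gene called was Cflar, which encodes c-FLIP, the inhibitor of caspase-8 at death receptors. Its log2 ratios were -0.68, -0.10, -0.54, -0.25, -0.68 and -0.46, and the fitted value was -0.45 ± 0.052 (adjusted p = 0.0015). Of its 6 probes tested, 3 were called lower, and the fitted ratios ran from -0.47 to -0.06. Its call was made in 17 of 21 alternative settings and lost with processed signals, the series table, median centring and unpaired channels (adjusted p of 0.0572 or more).

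Map3k14 (NIK, the kinase of the alternative NF-kB route) had 0.24 ± 0.053 (n = 5; adjusted p = 0.0542) and was called without replicate 5 (adjusted p = 0.0195), where it has no value of its own and the difference comes from the rest of the fit. Birc3 (cIAP2, a ubiquitin ligase bound to TRAF2) had 0.21 ± 0.049 (adjusted p = 0.0612), and both were called with array weights and with robust eBayes (Map3k14 adjusted p = 0.0317 and 0.0428, Birc3 0.0277 and 0.0495). Birc3 was also called without replicate 6 (0.25, adjusted p = 0.0494). Traf4 had 0.17 ± 0.056 by its brightest probe (adjusted p = 0.198), and 0.11 without replicate 5, while its other probe was called higher at 0.18 ± 0.040 (adjusted p = 0.0478).

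For 11 NF-kB subunits and inhibitors the median was 0.10, or 0.05 without replicate 5. Of the 11, 1 was called higher and 0 lower, beside 1.61% and 0.549% of all genes. That gene was Rel (c-Rel, the subunit prominent in activated lymphocytes), with log2 ratios of 0.05, 0.34, 0.01, 0.33, 0.29 and 0.52 and a fitted 0.26 ± 0.050 (adjusted p = 0.0277). Rel was called in 10 of 21 alternative settings. The call was lost without any 1 of replicates 1, 2, 3, 4 and 6 (adjusted p from 0.0591 to 0.106), and with offset 0, processed signals, the series table, median centring, no dye intercept or unpaired channels, with the ratio above 0 in all 21. Nfkbiz had 0.15 ± 0.039 (adjusted p = 0.0865), Nfkbie 0.15 ± 0.047 (adjusted p = 0.186) and Nfkbia 0.12 ± 0.045 (adjusted p = 0.278). Without replicate 5, 2 of the 11 were called higher, Rel and Nfkbie (adjusted p = 0.0438).

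Several members mark regulatory T cells or are also found on myeloid cells, so markers of those cells are given beside the receptors. Of 8 regulatory T cell markers tested, none was called, and their median was -0.02. Foxp3 had 0.12 ± 0.055 (adjusted p = 0.420), Ctla4 0.11 ± 0.053 (adjusted p = 0.454), Nrp1 0.17 ± 0.050 (adjusted p = 0.128) and Ikzf4 -0.09 ± 0.047 (adjusted p = 0.474).

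Of 9 monocyte and macrophage markers, 1 was called higher and 0 lower, beside 1.61% and 0.549% of all genes. That marker was Cd14, at 0.57 ± 0.069 (n = 5; adjusted p = 0.00294), with 0.63, 0.84, 0.50, 0.52 and 0.37 on its 5 unflagged arrays. Cd14 was called in 16 of the 20 alternative settings that gave it a value and lost with offset 0 (adjusted p = 0.068), processed signals, the series table and unpaired channels. The list's median was 0.04 (0.07 without replicate 5), and Lyz2 (0.10), Fcgr1 (0.07), Csf1r (-0.05) and Adgre1 (0.04) were not called. The log2 of the markers' summed intensity ran from 13.5 to 15.2 with VIP and from 13.2 to 15.2 without. Of the 9, 6 were well above background in both channels of all 6 arrays, with a flagged array counted against a marker. Cd14 and Csf1r were so on each of the 5 arrays that gave them a value. Without replicate 5 a second marker, Clec7a, was called (0.39, adjusted p = 0.0203). The part of such cells in the ratios of Tnfrsf1a and Tnfrsf1b was not tested.

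Of 10 B cell, 7 dendritic cell and 7 natural killer and CD8 T cell markers, none was called, and their medians were 0.03, 0.09 and 0.03. In both channels of all 6 arrays 7, 1 and 2 of them were well above background, with a flagged array counted against a marker. The B cell marker Cr2 and the dendritic cell markers Batf3, Xcr1 and Itgax were so on every array that gave them a value.

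**Figure D5:**
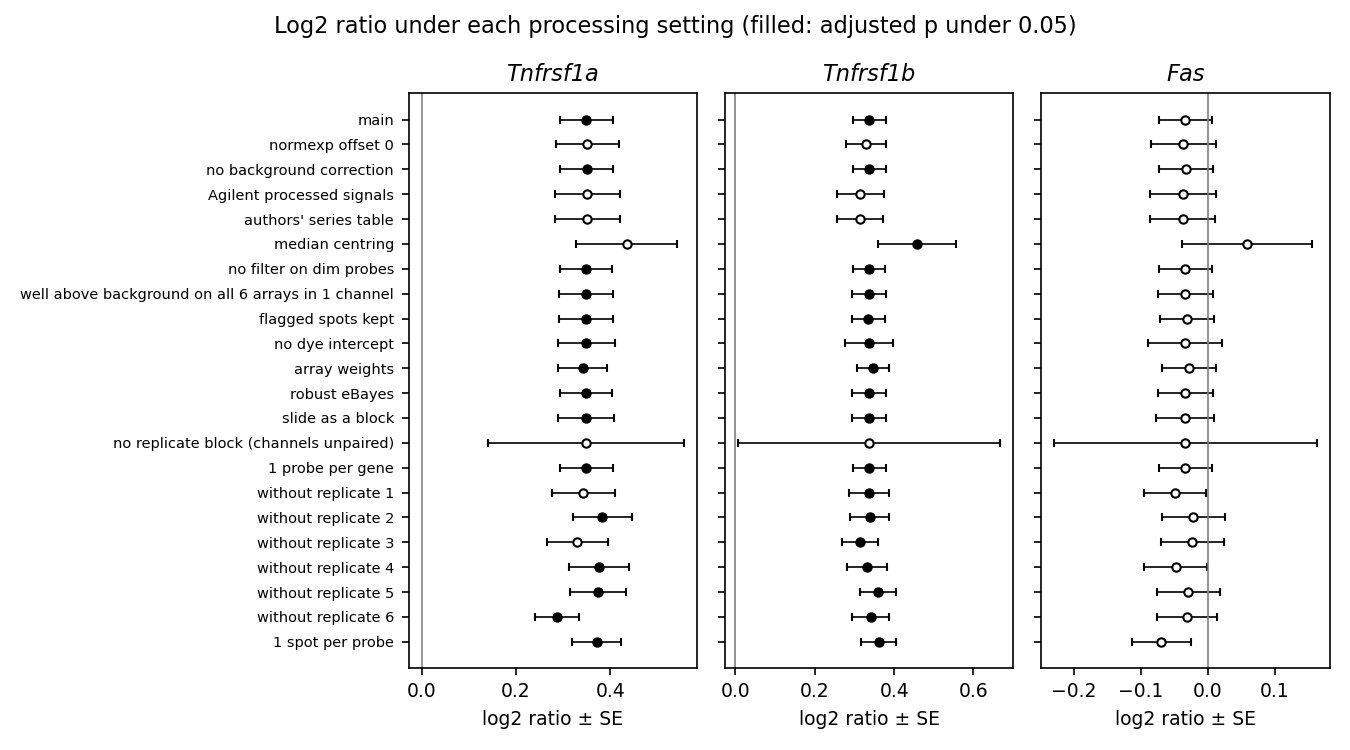
Log2 ratio ± SE (x axis) of the brightest probe of Tnfrsf1a, Tnfrsf1b and Fas under the main setting and each of 21 alternative settings (y axis). Filled circles are adjusted p under 0.05. Tnfrsf1a and Tnfrsf1b stay above 0 throughout and are filled in 14 and 17 of the 21 alternatives, while Fas is never filled.

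How far the 2 calls depend on the processing is shown by 21 alternative settings. Both ratios were above 0 in 21 of 21. Tnfrsf1b was called in 17 and Tnfrsf1a in 14. With Agilent's processed signals the ratios were 0.35 (adjusted p = 0.203) for Tnfrsf1a and 0.32 (adjusted p = 0.177) for Tnfrsf1b, and 0 members were called. Both calls were also lost with a normexp offset of 0 (adjusted p = 0.107 and 0.0576), with the authors' series table (0.179 and 0.157) and with the channels taken as unpaired, and that of Tnfrsf1a with median centring (adjusted p = 0.0816). Leaving out replicate 1 or replicate 3 ended the call of Tnfrsf1a (0.34, adjusted p = 0.0594, and 0.33, adjusted p = 0.0563), while that of Tnfrsf1b was kept.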

How the data were processed

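Per the file headers, Agilent Feature Extraction 9.5.1.1 gave the deposited spot intensity, local background and 0 or 1 quality flags (other) per channel. Processed signals are also deposited there as a log10 ratio. The authors' series table gives the same log10 ratios turned to VIP over untreated (largest difference 4.466e-06), with column medians of 0 on 5 arrays and -0.000222 on replicate 3.

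From the deposited intensity, log2 ratios were computed in limma 3.58.1 (R 4.3.3): normexp with an offset of 50, within-array loess (control spots given weight 0), and no scaling between arrays. The 1639 control spots and outlier-flagged spots were left out, and spots of a probe were averaged. Of 43379 spots, 26788 were named by accession and 1810 by synonym through a RefSeq table (GRCm38.p6); 14781 kept the file's name. Probe positions are the files', on mm9. Probes well above background on at least 3 arrays in either channel were tested (at least 0.5 of a probe's spots). Ratios were fitted with a dye intercept (lmFit, eBayes; 4 residual and 6.40 prior degrees of freedom). Each array is 1 replicate's pair per the labels. In replicate 5 sex-linked transcripts differ between channels, so its RNAs may come from different pools. A member was called through its brightest probe.

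Named genes are every member and probe, the called genes and at most the 4 with the smallest p of each other list, and Cd4 and Cd3e; further genes are named as ligands of members or to show a list's uncalled genes. Some results for single genes are left out. Members and lists were chosen with earlier results of these data known. On simulated data of 33056 probes the fit recovered 18%, 84%, 86% and 100% of 50 probes changed by log2 0.2, 0.4, 0.6 and 1, with 11 calls among unchanged probes. The 21 alternatives varied background correction, normalization, filter, flags, dye term, weights, prior, slide, pairing, probes and replicates. Each of the 3 slides holds 2 arrays, with VIP in Cy5 at position 2 and in Cy3 at position 4, so orientation and position cannot be told apart.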

Additional observations from a re-analysis of the deposited data

Results flagged for a closer look

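Of 73 series of array values examined, 8 held 1 array far from the others. Chance alone gives about 1 in 20 for a single series. The 8 include the sex-linked transcripts and the flagged share of replicate 5, which are not independent of one another. Their number therefore does not show that gene values stood apart more often than by chance. In replicate 5 the ligand Ltb had a log2 ratio of -0.12, against -0.59 to -0.46 on the other 5 arrays. Tnf had 0.56 in replicate 5, against -0.26 to -0.04 elsewhere. Tnfsf18, the ligand of Tnfrsf18, had -0.11 in replicate 1, against 0.02 to 0.06 on its other arrays. Its probe was dim, with a mean log2 intensity of 6.83, and was well above background on 3 arrays in each channel.

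Sex-linked transcripts stood apart in replicate 5 as well. Eif2s3y had a log2 ratio of 4.18, Ddx3y 4.08, Kdm5d 1.06 and Xist -3.29, while on the other arrays these lay between -0.34 and 0.46. The share of spots flagged was 13.5% there. No probe of a member was among the values set apart in this way.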

How the results depend on the processing

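The members' count called higher was 0 with a normexp offset of 0, with Agilent's processed signals, with the authors' series table and with unpaired channels, 1 with median centring, and 1 to 2 with a replicate left out. None was called lower under any of the 21 alternatives. For all probes, called higher and lower (535 and 178, or 75.0% higher), the counts were 110 and 9 with offset 0 (92.4% higher), 33 and 0 with processed signals (100%), 39 and 0 with the series table (100%), 172 and 9 with median centring (95%), and 247 and 53 without the dye intercept. Array weights gave 342 lower and slide as a block 105 lower. Leaving out a replicate gave 242 to 839 higher and 46 to 348 lower, with 87.2% higher without replicate 4. Treating the channels as unpaired, with no replicate block, gave 3 and 0, with ratios of 0.35 ± 0.21 (SE) for Tnfrsf1a and 0.34 ± 0.33 for Tnfrsf1b. The causes were not tested. The setting with 1 spot per probe, chosen after seeing the data, gave 534 and 181.

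Reversals in sign concerned uncalled ratios near 0. Cd27 was -0.000398 with offset 0 and -5.97e-05 with processed signals and the series table. Median centring turned Fas to 0.0577, Tnfrsf14 to 0.00627 and the dim Tnfrsf9 probe to -0.0357, and array weights turned Ltbr to 0.0130. With a replicate left out, ratios ran from -0.0347 to 0.0346 for Cd27, -0.0103 to 0.0312 for the second Fas probe, -0.130 to 0.0340 for Ltbr, -0.0479 to 0.0251 and -0.0788 to 0.00470 for the Tnfrsf14 probes, and -0.00461 to 0.0577 for the dim Tnfrsf9 probe. For members near 0, 6 arrays limit what can be seen.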

Other observations

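Among T cell markers, Cd28, the main costimulatory receptor outside the TNF receptor superfamily, rose with VIP by 0.28 ± 0.047 on the log2 scale (SE; adjusted p = 0.0123 in limma). Cd2, an adhesion receptor, rose by 0.22 ± 0.039 (adjusted p = 0.0167). Each was above 0 on all 6 arrays. The other tested probe of Cd28 gave 0.16 and was not called. Of 21 alternative settings Cd28 was called in 13 and Cd2 in 10, each by its brightest probe. Leaving out replicate 1, 2 or 6 ended the call of Cd28 (adjusted p from 0.0526 to 0.0703), and leaving out any 1 of replicates 1, 2, 3, 4 and 6 that of Cd2 (0.0611 to 0.093). Thy1 was not called through its brightest probe (0.18 ± 0.065, adjusted p = 0.241), while its other probe was, at 0.42. Cd4 (0.04) and Cd3e (0.05) were not called.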
